A study of Homo sapiens with 25 samples.

Results

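Large clusters of H3K27ac in control MDA-MB-231 cells were examined, together with the state of the same stretches after silencing of PML. A cluster was built from the control H3K27ac peak list on chromosomes 1 to 22 by joining peaks separated by gaps of at most 12500 bp, and it was kept when the joined region spanned at least 40 kb and touched no PML domain. Of 24642 joined regions, 191 spanned at least 40 kb; 15 of these overlapped a PML domain and the other 176 are the clusters described here. They were therefore selected on the control H3K27ac values, which are given below as a description and are not tested.

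MDA-MB-231 is a human triple-negative breast cancer line with mesenchymal features, and PML is the scaffold protein of PML nuclear bodies. Chromatin was precipitated for H3K27ac and H3K4me3 from control cells and from cells in which a lentiviral short hairpin RNA targeted PML, with 2 libraries for each mark and condition, all from the same line and fixed with a protein crosslinker followed by formaldehyde. The labels name no hairpin sequence, no control construct, no clone and no time after infection. PML domains came from 3 PML libraries whose titles give no condition. Replicates 1 and 2 were called together in each list, so each condition contributes 1 peak list per mark, no difference between conditions has a replicate check, and no p-value is given. The libraries' read depth is unknown, and absence from a list means only that a stretch did not pass the authors' threshold.

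H3K27ac is the acetylation of lysine 27 of histone H3, laid down at active enhancers and promoters. Long runs of closely spaced H3K27ac peaks are known as stretch enhancers or super-enhancers and often lie at genes that are characteristic of a cell's identity. H3K4me3, the trimethylation of lysine 4 of the same histone, marks active promoters and is usually weak or missing at enhancers. A control H3K4me3 peak was present in 58 of the 73 clusters without a protein-coding start. It was present in 61 of the 62 with 1 start, all 32 with 2 to 4 and all 9 with at least 5. At the gene starts of the line's markers, the control H3K27ac list had a peak at 6 of 6 mesenchymal and basal-type genes (VIM, CD44, AXL, ZEB1, CAV1 and EGFR) and at 0 of 6 luminal genes (ESR1, PGR, GATA3, FOXA1, ERBB2 and CDH1). COL1A1 was the 1 gene with a peak among 6 markers of other cell types, and PTPRC, CD3E, PECAM1, CDH5 and LUM had none. The control H3K4me3 list separated the sets less. It had a peak at 6 of 6 mesenchymal and basal-type genes, at 3 of 6 luminal genes (ESR1, FOXA1 and ERBB2) and at COL1A1. None of these 18 marker genes started inside a cluster.

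Of the 1256 cluster peaks more than 2.5 kb from every protein-coding gene start, 475 (37.8%) overlapped a knockdown H3K4me3 peak. Summit sequences are shown for 3 such peaks of high fold, all with knockdown H3K4me3, so they do not stand for the cluster peaks at large. The sequences illustrate the highest fold enrichment of any cluster peak, an AP-1 motif inside a gene body, and H3K4me3 only in the knockdown list. Each is the 300 bases around the summit of a control H3K27ac peak in hg38, read 5′ to 3′ on the plus strand, and capitals mark matches on either strand to the AP-1 motif TGANTCA or the TEAD motif GGAATG.
MAP3K7CL cluster, chr21:29182049-29182348: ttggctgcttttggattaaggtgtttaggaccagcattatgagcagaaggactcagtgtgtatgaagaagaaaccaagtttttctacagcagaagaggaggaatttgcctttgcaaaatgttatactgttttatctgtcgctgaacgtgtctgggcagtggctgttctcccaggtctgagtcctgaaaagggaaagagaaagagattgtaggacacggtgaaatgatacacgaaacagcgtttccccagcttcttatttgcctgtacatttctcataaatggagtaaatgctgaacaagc
ETS1 cluster, chr11:128522858-128523157: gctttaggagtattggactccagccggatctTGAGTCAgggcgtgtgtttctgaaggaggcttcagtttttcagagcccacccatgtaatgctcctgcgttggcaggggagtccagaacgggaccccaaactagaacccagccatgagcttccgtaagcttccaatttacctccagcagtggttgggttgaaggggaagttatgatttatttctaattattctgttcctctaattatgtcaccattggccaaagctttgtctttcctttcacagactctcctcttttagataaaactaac
ME3 cluster, chr11:86592696-86592995: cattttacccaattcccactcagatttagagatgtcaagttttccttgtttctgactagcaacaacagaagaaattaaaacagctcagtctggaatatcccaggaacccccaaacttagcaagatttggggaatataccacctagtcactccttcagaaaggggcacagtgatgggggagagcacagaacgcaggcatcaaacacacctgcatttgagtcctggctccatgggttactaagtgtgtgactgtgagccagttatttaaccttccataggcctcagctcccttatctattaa
The MAP3K7CL window lies outside the body of MAP3K7CL itself and overlaps an exon of a long noncoding RNA, ENSG00000224649, and it holds no match to either motif. Its peak lay 0.71 kb from the nearest annotated transcript start of any kind. It had a fold enrichment of 62.4 in control and 47.2 after knockdown, and an H3K4me3 peak covered its summit in both conditions. The ETS1 window is intronic in ETS1, a transcription factor of the MAPK pathway, and holds 1 AP-1 match, TGAGTCA, and its peak lay 0.01 kb from an annotated transcript start. Its fold enrichments were 44.3 and 35.0, again with H3K4me3 over the summit in both lists. The ME3 window is intronic in ME3, a mitochondrial malic enzyme, and holds no match, and its peak lay 76.9 kb from the nearest annotated transcript start of any kind. Its fold enrichments were 36.4 and 49.4, and H3K4me3 covered its summit in the knockdown list only. All fold enrichments are the authors' values per peak, so they rank peaks within a list and do not measure a change between lists.

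The shares of distal cluster summits with a short motif match were close to those of the other distal summits of the control list. A distal peak is one that lies more than 2.5 kb from every protein-coding gene start. AP-1 matches were present in 11.2% of 1256 distal cluster windows and in 13.0% of 28380 distal windows outside the clusters. TEAD matches, the motif of the partners of YAP, were present in 17.6% inside and 18.9% outside, and the RUNX motif TGTGGT in 20.9% and 20.3%. The ETS motif CCGGAAGT was rare at distal summits on both sides, at 0.478% and 0.359%. Mean GC content of these windows was 49.9% inside and 47.5% outside. Of the 176 clusters, 96 had an AP-1 match at 1 or more summits and 146 had a TEAD match, with at most 4 AP-1 summits in a cluster. These counts depend on the number of summits per cluster, a median of 8, and have no count outside the clusters beside them. A match is a description of letters in these windows and not evidence of binding.

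The clusters reached 123 kb in span, with a median of 48.4 kb, and together held 9.25 Mb. They contained 1523 of the 41198 control H3K27ac peaks, 3.70%, and 5.34% of the bases the list covers. Each cluster held 5 to 19 peaks, with a median of 8, and peaks covered between 11.1% and 73.2% of its span, with a median of 27.7%. The clusters were thus mostly gaps between peaks. At the ends of that range were the SHKBP1 and LTBP4 cluster on chromosome 19 at 11.1% and the SLC2A1 cluster on chromosome 1 at 73.2%; SLC2A1 encodes the glucose transporter GLUT1. Of the 458 peaks of at least 5 kb, 81 lay in a cluster, 17.7%, beside 3.70% of all peaks. The rule selected on joined span, to which long peaks add, so this gap is not a result about the clusters. By fold enrichment the cluster peaks had a median rank of 51.3% from the bottom of the list, and they made up 53 of the 1000 highest peaks, 5.3%, beside their 3.70% of all peaks.

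The span limit cut through a continuous range of regions. Just inside it were regions of 40001 bp at CACNG6 and VSTM1 on chromosome 19, 40005 bp in DLGAP4 on chromosome 20 and 40012 bp at NRP1 on chromosome 10. Just outside it were 39988 bp at VAMP8 and USP39 on chromosome 2, 39966 bp in PXN on chromosome 12 and 39965 bp at HIC1 and SMG6 on chromosome 17. The clusters lay on all 22 autosomes, with 24 on chromosome 1 and 2 each on chromosomes 7, 16 and 21. One of the chromosome 21 clusters, chr21:6020053-6060945, lay on the short arm.

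The 10 longest clusters spanned from 78.5 to 123 kb, and 7 of them held at least 1 protein-coding start. The longest, chr9:37926441-38049441, lay in the body of SHB, an SH2-domain adaptor protein, and its 19 control peaks covered 41.3 kb. At MYH9, the heavy chain of non-muscle myosin IIA, the cluster chr22:36326505-36417880 held 14 control peaks covering 38.5 kb. Inside ACTN4, the actin cross-linker alpha-actinin 4, the cluster chr19:38647704-38735107 had the highest coverage of the 176, 49.3 kb, and its edge lay 55 bp from the gene's start. A cluster of 80.2 kb at chr11:12156927-12237155 lay in MICAL2, an enzyme that oxidises actin filaments, and the chromosome 2 cluster of 93.3 kb held the starts of TRABD2A, KCMF1 and TMSB10, an actin monomer-binding thymosin.

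SMAD3, the signal transducer of TGF-beta receptors, started near the left edge of an 87.7 kb cluster at chr15:67063884-67151547, where 14 control peaks covered 41.6 kb. SMURF2, a ubiquitin ligase acting on the same pathway, started in an 88.1 kb cluster on chromosome 17 with 29.0 kb covered. The remaining long clusters held the starts of GADD45A, a stress-inducible growth arrest gene (84.8 kb), of the survival factor BCL2L1 with the spindle protein TPX2 (78.9 kb), and of TGM2, a protein cross-linking transglutaminase (78.5 kb). The next longest without a gene start inside were in MBP (78.3 kb) and in ETS1 (78.1 kb). Among the highest control folds were those of the clusters in MAP3K7CL at 62.4, at STARD13 at 53.1, at MYH9 at 48.2 and at the calmodulin gene CALM2 at 45.9.

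Protein-coding gene starts, taken from the canonical transcripts of GENCODE release 44, numbered 213 in the clusters, 1.11% of the 19111 on these chromosomes. No start lay in 73 of the 176 clusters, 1 in 62, 2 to 4 in 32 and at least 5 in 9. Of the 73 without a start, 48 overlapped the body of a protein-coding gene, 25 overlapped none, and 7 had a start within 2.5 kb of an edge. In most clusters the control H3K27ac bases lay mainly more than 2.5 kb from protein-coding starts. The median share within 2.5 kb of such a start was 9.88%, 68 clusters had none there, and 16 had more than 50%. A window of 2.5 kb on either side of a start is small beside a span of at least 40 kb, which favours a low share. Distal peaks made up 82.5% of the 1523 cluster peaks and 71.5% of the peaks outside. Peaks more than 2.5 kb from every annotated transcript start made up 58.0% and 53.2%, so the shares and their gap depend on the starts counted.

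The gene-dense clusters were largely runs of promoters, and in the 9 with at least 5 starts a median of 79.35% of control H3K27ac lay within 2.5 kb of a start. The one with the most starts, 10, lay on chromosome 17 and included DLG4, ACADVL, DVL2 and PHF23. A 63.9 kb cluster on chromosome 11 held the starts of CFL1, the actin-severing protein cofilin, and of FOSL1, an AP-1 subunit, among 9, and 52.2% of its H3K27ac lay within 2.5 kb of a start. Another with 9 starts, chr11:795911-845419, ran from PANO1 to TSPAN4 and included CD151, a tetraspanin of cell adhesion, and PNPLA2, the adipose triglyceride lipase, and there the share was 92.1%. A cluster near WNT7B on chromosome 22 had no protein-coding start but held those of noncoding genes including MIRLET7BHG, the host of let-7 microRNAs, and LINC00899.

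Of 228 genes of the 17 fixed lists on these chromosomes, 13 started in a cluster, 5.7%, where 1.11% of all protein-coding starts did; the lists were chosen with earlier results of these data known. In the AP-1 list 2 of 12 started inside, FOSB and FOSL1. In the MAPK and growth factor list 3 of 18 did, the phosphatases DUSP1 and DUSP5 and the EGFR inhibitor ERRFI1. In the mesenchymal list 2 of 16 did, SPARC and TGFBI, both encoding matrix proteins. The actin list had 1 of 15 (MYH9), TGF-beta 1 of 12 (SMAD3), the inflammatory list 1 of 16 (the cytokine gene LIF), hypoxia 1 of 12 (SLC2A1) and luminal 1 of 17 (MLPH). No member started in a cluster for TEAD and YAP (0 of 12), metastasis genes of the line (0 of 15), adhesion and matrix (0 of 16), cell cycle (0 of 12), basal (0 of 10), immune and stromal markers (0 of 12), PML body components (0 of 11) and long noncoding RNAs (0 of 10). ACTN4, ETS1, MAFG, LAMA3, CDK6 and HIF1A reached into a cluster by their bodies without starting there.

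The same stretches kept nearly all of their H3K27ac in the PML knockdown list. Covered bases inside the 176 clusters came to 2.78 Mb in control and 2.96 Mb after knockdown, of which 2.60 Mb were covered in both, 0.182 Mb in control alone and 0.362 Mb in knockdown alone. Of the control bases 93.45% were thus kept, with a median of 94.8% and a range from 72.7% to 100% per cluster. In 140 clusters at least 90% was kept, and in 5 under 80%: those in CREB3L2, MFN2, COG3 and MICAL2 and the one near TBXT.

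The ratio of knockdown to control covered bases had a median of 1.07, a 10th percentile of 0.927 and a 90th of 1.24. It was above 1 in 135 of 176 clusters, 76.7%, where 23.4% of all joined regions outside PML domains were; most of those are isolated peaks bounded by their own control edges, so they can hardly gain. Regions of 20 to 40 kb outside PML domains, which hold gaps as the clusters do, are the nearer comparison, and of these 951 regions 68.6% were above 1 with a median of 1.06. The summed ratio was 1.06 in the clusters and 1.07 in those regions. Over the whole lists, whose covered bases were 52.05 Mb and 58.99 Mb, it was 1.13. That value also counts knockdown bases outside every control joined region, so it is not a like measure. The clusters thus did not stand apart from shorter joined regions in this measure.

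Large shifts were few. A ratio of at least 1.25 was found in 17 clusters (5.46% of all joined regions), and a ratio of at most 0.8 in 1 cluster (16.6% of all joined regions). As shares of the clusters these were 9.66% and 0.568%, and in the regions of 20 to 40 kb the shares were higher, 13.5% and 3.47%. The choice of clusters on the control list bears on these values, since clusters chosen by the same rule on the knockdown list gave a median ratio of 1.17 over 230 clusters. Of the control clusters, 151 (85.8%) overlapped a knockdown cluster, which is 65.7% of the knockdown clusters, and 25 met no knockdown region of 40 kb or more. By joining alone, 153 control clusters fell in 1 knockdown joined region and 23 were split over 2 or 3.

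**Figure D1:**
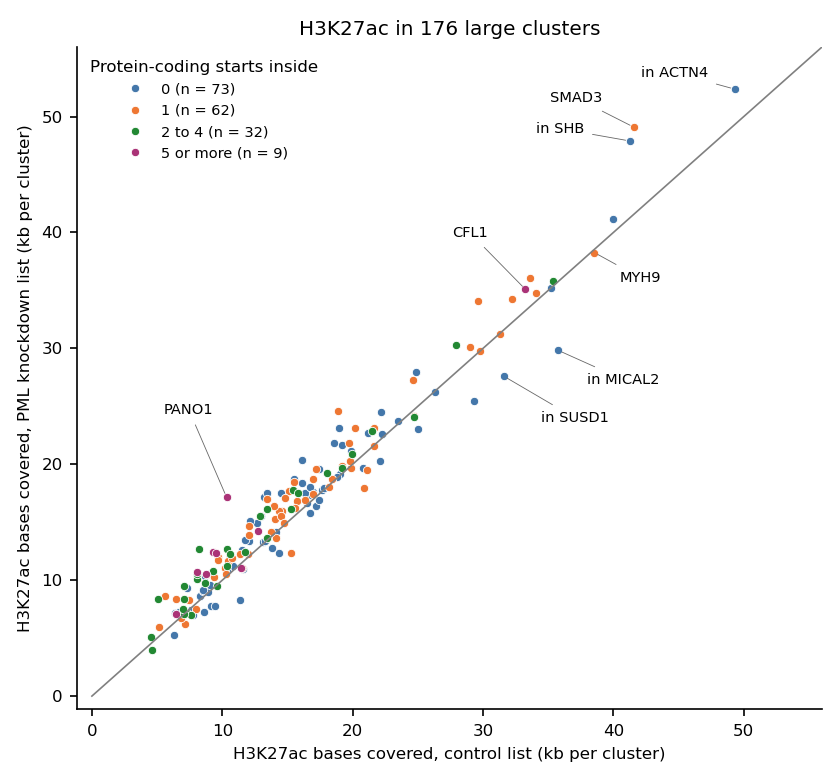
Covered H3K27ac bases (kb) of each of the 176 clusters in the control list (x axis) and the PML knockdown list (y axis), coloured by the number of protein-coding starts inside, with the line of equal values. Most points lie close to the line, with PANO1 (10.3 and 17.2 kb) above it and the clusters in MICAL2 (35.8 and 29.8 kb) and SUSD1 (31.6 and 27.6 kb) below it.

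The clusters with the lowest ratios held few gene starts. In CREB3L2, a membrane-bound transcription factor of the endoplasmic reticulum, H3K27ac covered 11.4 kb in the control list and 8.28 kb after knockdown, a ratio of 0.730. At F2RL1, the protease-activated receptor PAR2, it covered 15.3 kb and 12.4 kb, a ratio of 0.812. The cluster near TBXT had a ratio of 0.827 and the one in COG3, a Golgi tethering subunit, 0.833. The cluster in MICAL2 was the longest of the 5, with 35.8 kb covered in control and 29.8 kb in knockdown, a ratio of 0.834, and it was split over 2 knockdown joined regions. Its last control peak of 5.41 kb faced 2 knockdown peaks of 1.53 and 1.58 kb, and its tallest peak was present in both lists at 6.08 and 6.05 kb long. The long cluster in SUSD1 also had less coverage in knockdown, at 31.6 and 27.6 kb, a ratio of 0.874.

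The highest ratios belonged mostly to gene-dense or sparsely covered clusters. The PANO1 to TSPAN4 cluster went from 10.3 kb in control to 17.2 kb after knockdown, a ratio of 1.66, and 10 control peaks there faced 11 in knockdown. At SHKBP1 and LTBP4, the latter a TGF-beta binding matrix protein, coverage was 5.08 and 8.37 kb, a ratio of 1.65. At CCDC57 and SLC16A3, the lactate exporter MCT4, it was 8.22 and 12.7 kb, a ratio of 1.54. THSD4 followed at 1.54 and AP2S1 with ARHGAP35 at 1.36. All 5 held little H3K27ac in control, between 5.08 and 10.3 kb against a median of 14.1 kb over the 176 clusters. By gene content the median ratio was 1.04 for clusters without a start, 1.07 with 1, 1.08 with 2 to 4 and 1.21 in the 9 clusters with at least 5.

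Among the long clusters, SMAD3 had 41.6 kb in control and 49.1 kb in knockdown, a ratio of 1.18, SHB 41.3 and 47.9 kb, a ratio of 1.16, and TGM2 18.9 and 24.6 kb, a ratio of 1.3. MYH9 differed little in sum at 38.5 and 38.3 kb, although the joining rule split it over 3 knockdown regions. ACTN4 had 49.3 and 52.4 kb, ETS1 39.9 and 41.2 kb, and BCL2L1 with TPX2 35.4 and 35.8 kb. The clusters holding starts of fixed-list genes ranged from a ratio of 0.979 at SPARC to 1.22 at FOSB, within the 10th to 90th percentile of all clusters. DUSP1 (0.994) and ERRFI1 (0.997) were close to 1, as was the cluster that reaches into HIF1A (0.966), and LIF had 29.6 and 34.1 kb, a ratio of 1.15.

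Peaks that dropped out of the list were short and low. Of the 1523 control peaks in clusters, 94 had no overlapping knockdown peak, 6.17%, against 8.43% of all control peaks. Those 94 had a median fold of 3.08, at most 5.41, a median length of 376 bp and a median rank of 13% from the bottom of the list. Among distal peaks the share was 6.93% inside and 10.6% outside, and for distal peaks under 1 kb it was 18% and 20.2%. No distal cluster peak of 2 kb or more was missing from the knockdown list, and outside the clusters 0.0369% of those of 2 to 3 kb and 0.0% of longer ones were. In the other direction, 100 of 1442 knockdown peaks in clusters had no control peak, 6.94%, where 15.5% of all knockdown peaks had none. The rule chose stretches dense in control peaks, which favours a low share here, so the gap is not a result about the clusters.

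**Figure D2:**
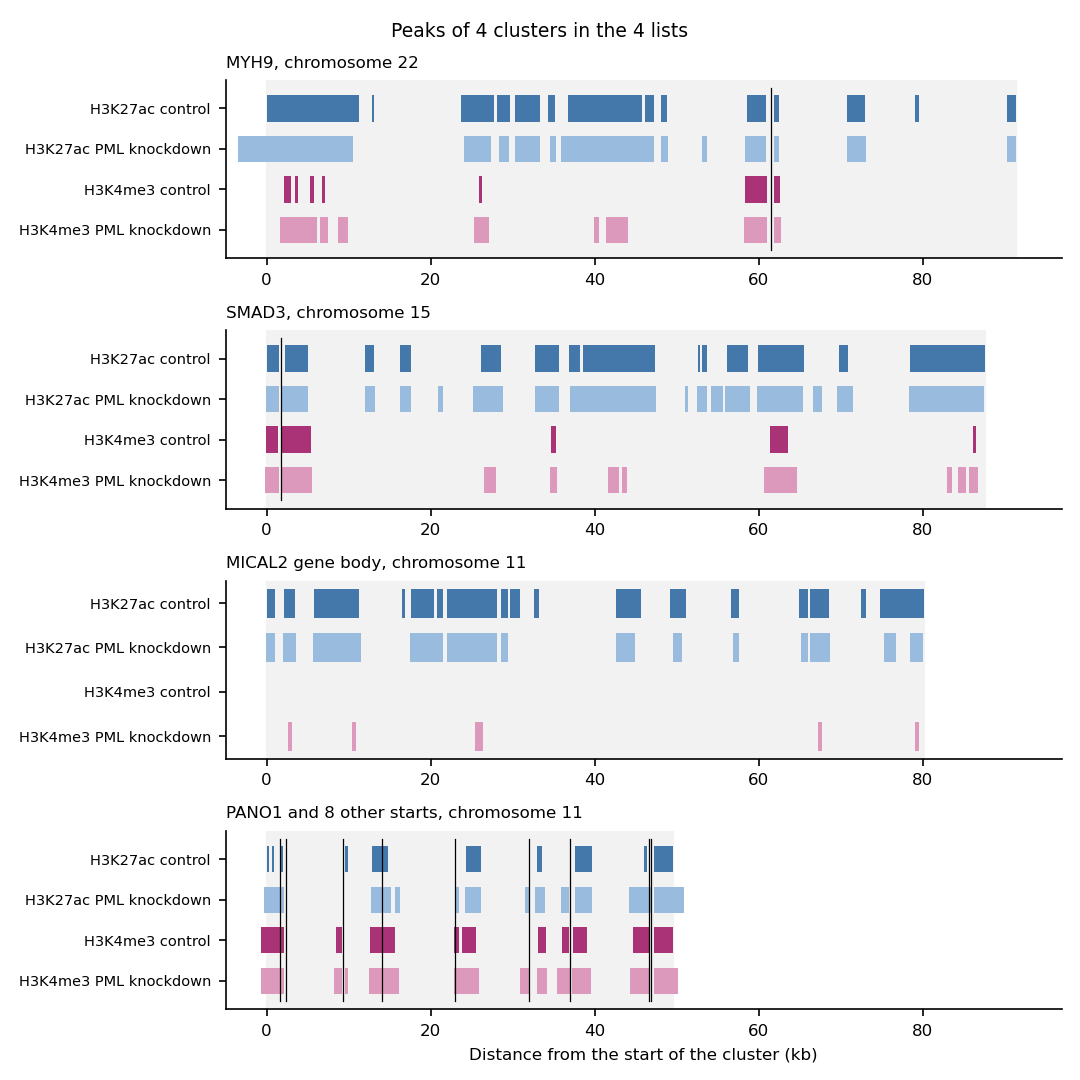
Peaks of the control and PML knockdown lists (rows: H3K27ac and H3K4me3) along 4 clusters, by distance in kb from the left edge of the cluster; grey marks the cluster's span and vertical lines the protein-coding starts. MYH9 and SMAD3 show wider or additional H3K4me3 blocks away from the start in the knockdown list, MICAL2 shows H3K4me3 in the knockdown list only, and the 9 starts from PANO1 onwards carry most of that cluster's peaks.

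H3K4me3, which the choice of clusters did not use, covered more of them in the knockdown list than in the control list. It covered 0.796 Mb of the clusters in control and 1.26 Mb in knockdown, a summed ratio of 1.58, and 99.4% of the control bases were kept. A control H3K4me3 peak was present in 160 clusters, 90.9% (51.6% of all joined regions outside PML domains), and a knockdown peak in 173, 98.3% (63.0% of all such regions). In regions of 20 to 40 kb these shares were 78.8% and 92.1%. The mark was found in the knockdown list alone in 13 clusters, 7.39%, and in 13.6% of the regions of 20 to 40 kb, and in the control list alone in 0 clusters and in 2 of those 951 regions. In RAB8B, LAMA3 and at SPARC neither list had a peak.

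Per cluster the H3K4me3 ratio had a median of 1.57 over the 160 with control H3K4me3. It was above 1 in 159 of them, 99.4%, against 62.5% of all joined regions with the mark, and at least 2 in 49, 30.6%, against 9.07%. The exception was the cluster in PDE7B, a cyclic AMP phosphodiesterase, at 2.03 kb in control and 1.71 kb in knockdown. Regions of 20 to 40 kb again give the nearer comparison, with 98.7% of 749 above 1, a median of 1.41, a summed ratio of 1.5 and 22.3% at 2 or above. The share above 1 in the clusters was thus near that of the shorter regions. The whole H3K4me3 list covered 30.4 Mb in control and 41.35 Mb in knockdown, a ratio of 1.36. This ratio also counts bases outside the joined regions, so it is not a like measure. With the knockdown list trimmed to as many peaks as the control list, by fold enrichment, the medians were 1.33 in the clusters and 1.24 in regions of 20 to 40 kb. Library depth and enrichment per replicate are not in the lists, and their part in this difference was not tested.

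**Figure D3:**
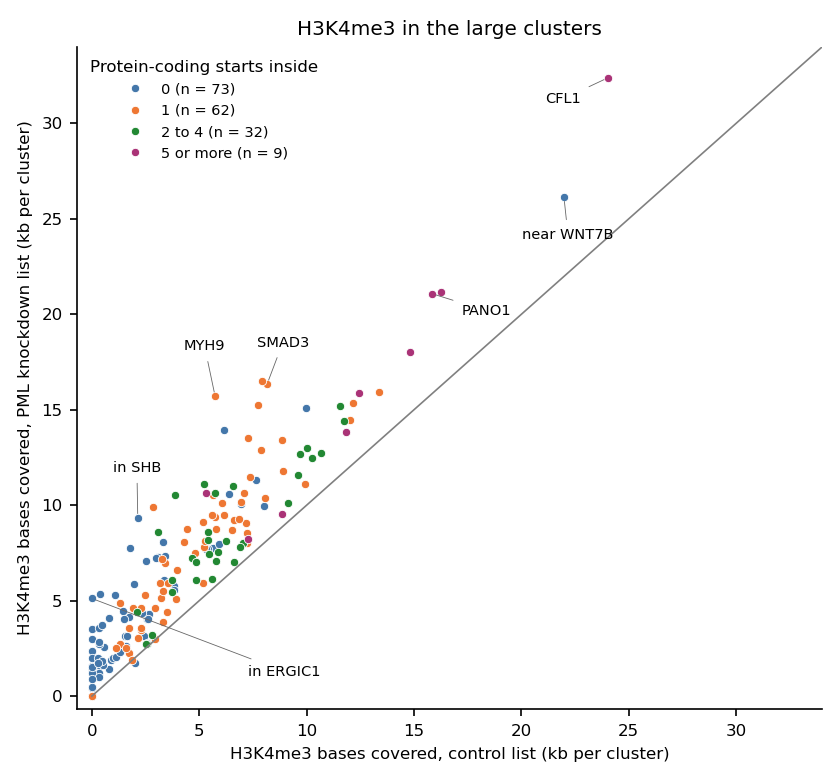
Covered H3K4me3 bases (kb) of each of the 176 clusters in the control list (x axis) and the PML knockdown list (y axis), coloured by the number of protein-coding starts inside, with the line of equal values. Nearly every point lies above the line, among them MYH9 (5.74 and 15.7 kb) and SHB (2.14 and 9.34 kb).

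The relative difference was widest where control H3K4me3 was scarce. Clusters without a gene start had a median H3K4me3 coverage of 1.31 kb in control and 3.17 kb in knockdown, with a median ratio of 2.16 over the 58 with control signal. Clusters with 1 start had 5.17 and 8.10 kb, those with 2 to 4 had 5.67 and 8.07 kb, and those with at least 5 had 12.4 and 15.9 kb. The corresponding ratio medians were 1.57, 1.3 and 1.28. The knockdown median was higher in each class, and the median ratio was lower where control coverage was higher. The highest ratios rested on little control signal: 0.387 and 5.34 kb near BMP7, a bone morphogenetic protein gene (13.8), 0.334 and 3.54 kb in UQCC1 (10.6), 0.320 and 2.84 kb in AFAP1, an actin filament-associated protein (8.87), and 0.328 and 2.71 kb in BDH1 (8.27).

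At MYH9, SMAD3 and ACTN4 most of the additional H3K4me3 lay away from the gene start. At MYH9 the peaks flanking the start were alike in both lists (2.68 and 2.76 kb long for the larger). At the left end of the cluster, beneath the 11.2 kb H3K27ac peak, 4 control H3K4me3 peaks of 0.293 to 0.836 kb stood against 3 knockdown peaks, the longest of 4.55 kb with a fold of 17.0. A knockdown H3K4me3 peak of 2.75 kb also lay at 41.4 kb from the left edge, where the control list had none. The MYH9 cluster in all went from 5.74 to 15.7 kb.

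SMAD3 went from 8.16 to 16.3 kb of H3K4me3, with 5 control and 10 knockdown peaks. Its start fell between a pair of H3K4me3 peaks in both lists, the downstream one 3.53 kb long in control and 3.81 kb in knockdown, and an internal peak was 2.25 and 3.96 kb long. SHB went from 2.14 to 9.34 kb without any start in the cluster, and the cluster in ACTN4 from 6.15 to 14 kb. The peak next to the ACTN4 start was 5.2 and 5.91 kb long, while a 3.51 kb knockdown peak began 8.43 kb into the cluster and overlapped a control peak of 0.538 kb.

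Clusters without control H3K4me3 were all but 1 without a gene start. The 5 longest of these 16 clusters were in MICAL2, ERGIC1, ME3, SUSD1 and ZMIZ1, and each had H3K4me3 in the knockdown list. In ERGIC1, a protein cycling between endoplasmic reticulum and Golgi, 5 knockdown peaks covered 5.11 kb. ZMIZ1, a transcriptional coactivator, had 3.52 kb, MICAL2 3.0 kb, ME3 2.34 kb and SUSD1 0.883 kb. These were low peaks, and in MICAL2 their folds ran from 2.75 to 6.13. The ME3 sequence printed above lies under one of them, a 1.27 kb peak with a fold of 5.34.

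At the other end, the CFL1 and FOSL1 cluster carried the most H3K4me3, 24.0 kb in control and 32.4 kb in knockdown. The cluster near WNT7B, with starts of noncoding genes only, followed at 22 and 26.1 kb. The DLG4 cluster had 16.2 and 21.2 kb, PANO1 15.8 and 21.1 kb, and the cluster at WBP1, MOGS and PCGF1 on chromosome 2 14.8 and 18 kb. These clusters had ratios between 1.19 and 1.35, below the median over all clusters.

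Gene starts in the clusters carried H3K4me3 in nearly every case. Of the 213 starts, 196 (92.0%) had a control peak within 1 kb, where 62.5% of all protein-coding starts did, and 201 had a knockdown peak, where 64.4% of all did. The choice on H3K27ac bears on this gap: 92.5% of these starts had control H3K27ac within 1 kb, against 51.4% of all starts. Among control H3K27ac peaks with a start within 2.5 kb, control H3K4me3 overlapped 92.1% in clusters and 93.9% outside. H3K4me3 was listed in knockdown alone at 5 starts (2.0% of all starts), among them CRACR2B, a calcium channel regulator, HSD17B1, an oestradiol-forming enzyme, and B3GNT7, a glycosyltransferase. No start had it in control alone (0.0942% of all starts). At 12 starts, 5.63%, neither list had a peak, where 35.5% of all starts had none, and these included LIF, SPARC, STC2, LTBP4, TGM1 and CTSW. At LIF, SPARC and STC2 the cluster's H3K27ac therefore surrounded a canonical start with neither mark listed within 1 kb.

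Most starts of the fixed-list genes had both marks in both lists. The highest H3K4me3 folds within 1 kb of the start were 42.1 in control and 84.8 in knockdown at MLPH, and 32.4 and 64.4 at DUSP1. SMAD3 had 18.1 and 48.2, FOSB 22.6 and 53.1, ERRFI1 21.9 and 45.2, and MYH9 21.1 and 22.8. TGFBI, whose product binds matrix collagens, had H3K4me3 in both lists (20.6 and 21.7) and H3K27ac within 1 kb in the control list only, at a fold of 2.79. Folds of different lists are on the authors' own scale for each list and are given side by side without a comparison.

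Away from gene starts, acetylated peaks in the clusters were overlapped by H3K4me3 more often in the knockdown list. Of 1256 distal cluster peaks, 249 (19.8%) overlapped a control H3K4me3 peak and 475 (37.8%) a knockdown peak, with 228 in knockdown alone and 2 in control alone. With equal numbers of H3K4me3 peaks in both lists the knockdown share was 24.3%, which leaves a smaller gap to the control share. Over all 29636 distal control peaks the shares were 19.7% and 35.2%, so the clusters' shares lay near the background. For peaks with a start within 2.5 kb the cluster shares were 92.1% and 95.1%, near the 93.8% and 96.3% over all such peaks. Among distal peaks more than 2.5 kb from every annotated transcript start, the shares in clusters were 15.7% and 34%, and outside 14.4% and 29.5%.

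The overlap was more frequent at longer peaks. Distal cluster peaks under 1 kb overlapped H3K4me3 in 9.64% of cases in control and 14.6% in knockdown, and those of 3 kb or more in 43.9% and 77.6%. Outside the clusters the shares for peaks under 1 kb were 15.1% and 22.7%, and for 3 kb or more 42.6% and 77.8%. In the shortest class the cluster peaks also had a lower median fold, 3.44 against 3.84 outside, and the difference between the places was not tested. Median fold was higher in longer peaks too, at 17.1 inside and 17.2 outside for 3 kb or more. A longer peak also meets an overlap of 1 bp more easily. The parts of length and fold in the overlap were not tested.

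**Figure D4:**
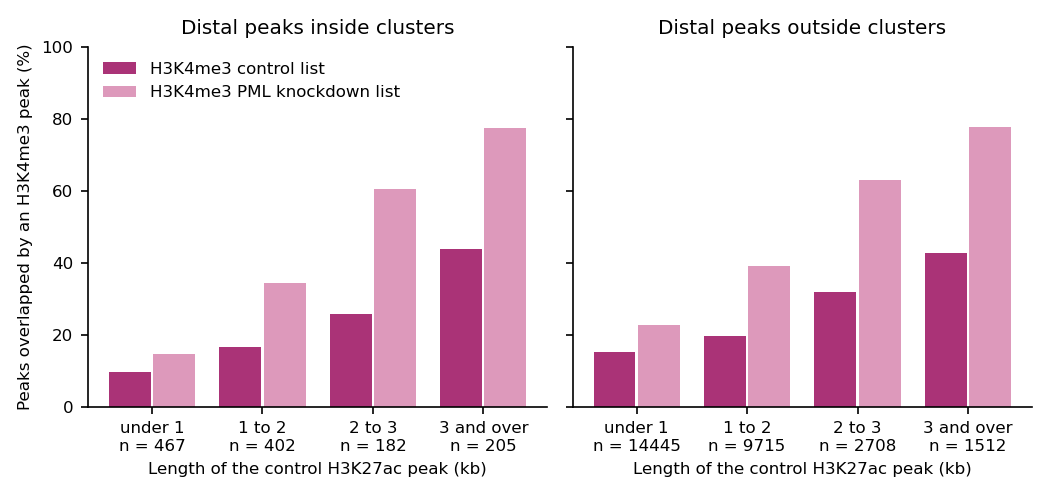
Share of distal control H3K27ac peaks (%) overlapped by at least 1 bp of an H3K4me3 peak of the control list (dark bars) and PML knockdown list (light bars), by length of the H3K27ac peak in kb, inside the clusters (left) and outside (right); n is the number of peaks. Shares increase with length in both panels, from 9.64% and 14.6% to 43.9% and 77.6% inside, and the bars for 3 kb and over are alike on both sides.

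Counted from the H3K4me3 lists, the clusters lay further from the background than in the shares of distal H3K27ac peaks. Lists of equal size were not tried for these counts. The clusters held 526 control H3K4me3 peaks, of which 2 had no knockdown counterpart (1.18% of all control H3K4me3 peaks had none). They held 758 knockdown peaks, of which 293, 38.7%, had no control counterpart (27% of all). Distal peaks made up 53.6% of the control and 69.7% of the knockdown H3K4me3 peaks in clusters, and 37.1% and 50.8% outside. Counted from every annotated transcript start, the shares were 32.5% and 46.6% in clusters, and 20.8% and 32.85% outside. Of the control H3K27ac bases in clusters, 24.1% lay under control H3K4me3 and 37.7% under knockdown H3K4me3, and in regions of 20 to 40 kb 30.05% and 44.3%.

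The clusters lay clear of heterochromatin-type domains in control. None overlapped a control LMNB1 domain, where 2.28% of all joined regions outside PML domains did, and 1 overlapped a control H3K9me3 domain (4.68% of all), the cluster near CAMK1G on chromosome 1. In regions of 20 to 40 kb, the nearer comparison, these shares were 0.736% and 3.68%, so few overlaps were found there too. LMNB1 is a protein of the nuclear lamina, and H3K9me3 is the mark of constitutive heterochromatin. In the knockdown lists 1 cluster, 0.568%, at HPS4, SRRD and TFIP11, fell in an LMNB1 domain (2.07% of joined regions under 40 kb). In regions of 20 to 40 kb the knockdown shares were 0.841% for LMNB1 and 7.99% for H3K9me3. An H3K9me3 domain of the knockdown list overlapped 10 clusters, 5.68% (8.03% of all). Among them were the CAMK1G cluster, a pair in HIVEP3, the one in DAP, those at IER5, GALNT2, MLPH and STC2, and the one near BMP7, and the H3K27ac ratios of the 10 ran from 0.944 near CAMK1G to 1.18 in HIVEP3. H3K27ac coverage in these clusters was therefore not lower in the knockdown list, apart from the cluster near CAMK1G, which lay in H3K9me3 in both conditions. Distances to the nearest PML domain ran from 22.7 kb, for the cluster in FOXP1, to 72090 kb, with a median of 1555 kb. The 4 clusters within 100 kb, in FOXP1 and ETS1 and at HPS4 and ZNF217, had H3K27ac ratios from 0.977 to 1.27.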

How the data were processed

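Control and PML knockdown libraries of MDA-MB-231 cells were used through 1 peak list per mark and condition, which the names of the deposited peaks show to be a joint call of replicates 1 and 2. Their file names mark conditions as ct and pml, which are read as control and PML knockdown; this reading is an assumption. The submitters' processing notes list deepTools, MACS2 2.2.7.1, Picard 1.104 and BWA 0.7.12-r1039, with no role for any, and the build hg38. The fold enrichment per peak is a ratio in the deposited lists, the authors' -log10 q-value has a lowest value of about 1.3, and the domain lists hold the authors' score with no unit stated. Libraries of H3K27me3 and of input DNA were not used here.

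Peaks on chromosomes 1 to 22 were joined and intersected with Python 3.11.15, numpy 2.4.6 and pandas 2.3.3; figures used matplotlib 3.10.9. Interval code was tested on simulated data and checked against bedtools 2.31.1. A shared peak overlaps by at least 1 bp, and covered bases were counted within a cluster's control bounds. Gene starts came from GENCODE release 44 on hg38, and 228 of 233 listed genes matched on these chromosomes. Sequences are from hg38. Some list members and named regions are not reported here.

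The clusters, the gene lists and the rules for what is named were chosen with earlier results of these data known. Regions named were the 10 longest, the 5 lowest and 5 highest in H3K27ac ratio, the 5 with the most control H3K4me3, the 5 with the highest fold, and the 5 longest without control H3K4me3 or without a gene start; genes named were list members starting in a cluster. Extremes of the H3K4me3 ratio, clusters in domains, clusters under 80% kept, starts without H3K4me3 and list genes reaching in by their bodies were named after their values were seen. Alternatives were other joining distances and spans, stricter or equal-sized lists, other overlap and promoter definitions, and the same rule applied to the knockdown list. With 1 pooled list per condition there is no spread between replicates and no test.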

Additional observations from a re-analysis of the deposited data

How the results depend on the processing

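The number of clusters depends on the rule. Against 176, joining within 10 kb gave 74 and within 15 kb 342, a span of at least 30 kb gave 432 and of at least 50 kb 78, a -log10 q of at least 5 gave 111, and removing peaks within 2.5 kb of a gene start before joining gave 99. Ignoring PML overlap gave 191. Equal-sized lists keep the control list whole and so are no check of this count. The median H3K27ac ratio of 1.07 stayed between 1.06 and 1.08 under other distances, spans, -log10 q and list sizes, and was 1.17 for clusters of the knockdown list and 1.15 for clusters of either list joined. The share of cluster peaks without a knockdown peak, 6.17%, was 7.55% when 50% of the peak had to be covered, 8.47% with equal-sized lists and 5.70% at a -log10 q of at least 5. The median H3K4me3 ratio of 1.57 was 1.5 at a -log10 q of at least 5 and 1.33 with equal-sized lists. The share of distal cluster peaks with knockdown H3K4me3, 37.8%, was 24.3% with equal-sized lists and 30.8% at a -log10 q of at least 5, where the control share of 19.8% was 15.1%. The share of starts with control H3K4me3 stayed between 91.1% and 93.9%. Clusters of either list joined and the settings for distal peaks were chosen after seeing the data.

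No paired analysis was possible because the deposited lists pool replicates 1 and 2, and for the same reason no replicate was left out. Read depth is unknown, and signal under the authors' threshold does not appear in a list.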

Other observations

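Clusters present by the same rule in the knockdown list, where the control list had no joined region of 40 kb or more, numbered 79. The longest lay at SAMD4A, an RNA-binding translational repressor, on chromosome 14 with 90.7 kb, where H3K27ac covered 14.5 kb in control and 21.1 kb after knockdown and the longest control joined region spanned 28.5 kb. NUAK1, a kinase of the AMPK-related family, started in one of 62.7 kb on chromosome 12, with 12 and 18 kb covered. A region of 62.4 kb in GRAPL and EPN2 on chromosome 17 had 12.3 and 13.6 kb, so there the length of the joined region differed more than the coverage. These regions were chosen on the knockdown list, which fixes the direction of the difference in their length.

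The 15 large clusters that overlapped a PML domain had a median H3K27ac ratio of 1.06, with 12 of 15 above 1, and a median H3K4me3 ratio of 1.88 over 13 clusters. The 176 clusters outside had 1.07, 135 of 176 above 1 and 1.57, and the differences were not tested.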
